A study of Arabidopsis thaliana with 18 samples.

Results

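Leaves of Arabidopsis thaliana plants that had stood in mannitol for 3 h were compared with leaves of mock plants. The comparison took the 3 arrays labelled as leaf osmotic and the 3 labelled as leaf mock, both with the day 10 label, which are 6 of the 18 arrays of the series. All plants were accession Columbia-0, without transgene or mutation, grown hydroponically. The osmotic plants received 0.3 M mannitol in their growth medium, in the light, and the mock plants carried no mannitol. A further leaf group of 3 arrays, with the day 11 label, was taken from the treatment description to be plants returned to plain medium for 1 day. The mock, osmotic and day 11 groups were repeated in roots, again with 3 arrays each. The labels give biological replicates, plant age is given as day 10 in one place and as 30 days in another and was not resolved, and the sources used here do not give the hour at which mock leaves were collected.

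Mannitol is a sugar alcohol that lowers the water potential of the medium, so that plants take up water less readily and leaf cells lose turgor. Plant cells are known to answer such a deficit through the hormone abscisic acid (ABA), which induces protective hydrophilic proteins and closes stomata, and through pathways independent of ABA. Leaf growth, which depends on turgor and on loosening of the cell wall, is known to slow early under water deficit.

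Each value was a log2 expression value of a probe set on an Affymetrix ATH1 array, and 22746 probe sets were tested. A change is the osmotic mean minus the mock mean on the log2 scale with its standard error (SE), taken from limma, and it was called at a Benjamini-Hochberg adjusted p under 0.05. The median SD of a probe set was 0.139 among mock and 0.174 among osmotic leaves (n = 3 each), and 3 arrays a group limit the precision of every value. Arrays of one group correlated at 0.9879 or more among mock and osmotic leaves, and at 0.9867 or more over all groups. The leaf label held against its markers. The genes of rubisco activase (RCA), phosphoribulokinase (PRK), sedoheptulose-bisphosphatase (SBPASE) and a photosystem I subunit (PSAE-1) had array means of 12.7 to 12.9 in mock and 12.2 to 12.5 in osmotic leaves. In mock roots the same 4 genes had 4.66 to 5.14. The root hair expansins EXPA7 and EXPA18 had 4.46 to 4.61 in mock and 4.36 to 4.62 in osmotic leaves, close to the lower quartile of the arrays (4.27 to 4.50), against 8.66 to 9.14 in mock roots. Values below that quartile were not separated from background, so a log2 change that starts or ends there is at best a lower bound. The tissue was whole leaf, in which fewer cells of a type and less RNA per cell cannot be told apart.

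In all, 4694 of the 22746 probe sets (20.6%) changed, 1960 upwards (8.62%) and 2734 downwards (12%). Of these, 648 rose and 408 fell at least 2-fold. Rises were larger than falls at their centre and at their edge. The median rise was 0.77 and 1 in 10 rises exceeded 1.63, whereas the median fall was -0.62 and 1 in 10 falls went beyond -1.12. The calls grew with expression level: of probe sets in the lowest of 4 equal classes of level 2.29% rose and 1.99% fell, and in the highest class 14.5% rose and 17.9% fell. The 3 osmotic arrays lay entirely above or below the 3 mock arrays for 33.2% of probe sets. Without osmotic leaf replicate 2, 3048 probe sets changed, and with each array centred on its median the share of rises among the calls was 54.5% in place of 41.8%.

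**Figure D1:**
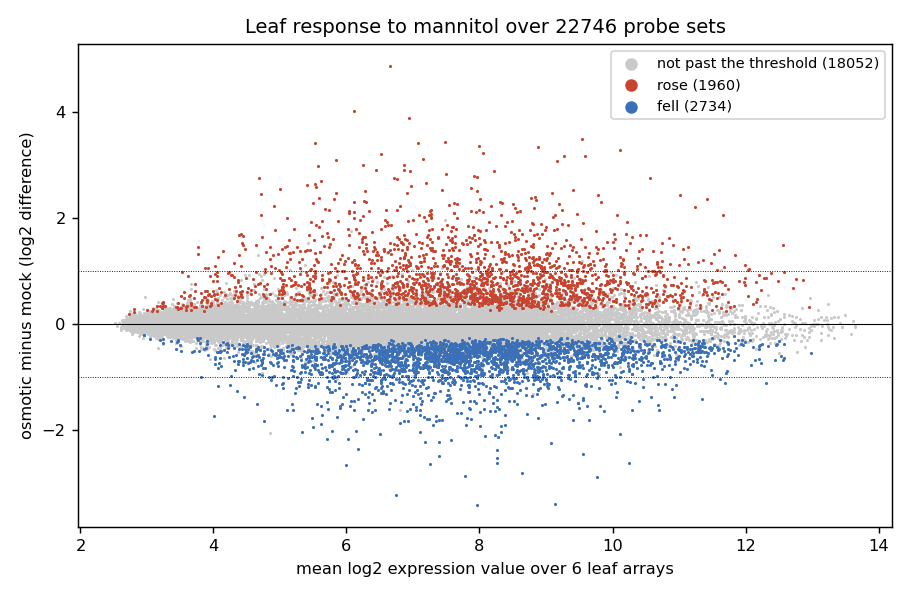
Each point is a probe set; the horizontal axis is the mean log2 expression value over the 6 leaf arrays and the vertical axis the osmotic minus mock log2 difference. The 1960 rises (red) reach further from 0 than the 2734 falls (blue), and dotted lines mark a 2-fold change.

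The ranking covered 411 genes that were called, changed at least 2-fold without overlap of arrays and had the brighter mean above the median of all values; probe sets without a single gene were not ranked. The largest rise among them was that of COR27 (AT5G42900), a cold-regulated nuclear protein that acts in the circadian clock and in light signalling. It read 3.59, 4.38 and 4.33 in mock leaves and 8.20, 7.64 and 8.51 in osmotic leaves. The groups stood far apart, at a difference of 4.02 ± 0.25 (16.2-fold, adjusted p = 3.2e-08), with the mock mean below the lower quartile. The locus AT4G33980 read 3.54, 3.90 and 3.99 in mock and 7.22, 6.48 and 7.99 in osmotic leaves. It rose by 3.42 ± 0.30, from a mean that was again below the lower quartile, and in both genes replicate 3 was the highest osmotic array and replicate 2 the lowest. QQS (AT3G30720), an orphan gene found only in Arabidopsis thaliana that affects the allocation of carbon to starch, read 7.47, 8.13 and 7.78 in mock leaves. Its osmotic values were 11.21, 10.90 and 11.71, an 11.2-fold rise (3.48 ± 0.29, adjusted p = 4.5e-07). PUB19 (AT1G60190), a U-box ubiquitin ligase known to act as a negative regulator of ABA responses, stood at 6.72, 6.48 and 6.11 and then at 9.33, 10.07 and 9.57. The lowest osmotic array of PUB19 was well above the highest mock array, and the rise was 3.22 ± 0.23 (adjusted p = 9.4e-08).

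A further 6 of the 12 largest rises were of loci given by identifier only. AT2G41190 rose from 8.02, 7.50 and 7.35 to 10.50, 11.13 and 10.46, with a difference of 3.08 ± 0.23. AT3G13672 went from 5.39, 5.06 and 5.58 to 7.86, 8.22 and 8.20, a rise of 2.75 ± 0.19 with little spread in either group. AT2G43620 rose by 2.78 ± 0.33, AT4G02360 by 2.99 ± 0.38, AT1G26420 by 2.91 ± 0.50 and AT1G54020 by 2.71 ± 0.29, the last from a mean below the lower quartile. Spread among the osmotic arrays was wide for AT4G02360, at 6.79, 8.94 and 7.52. All 12 largest rises kept their call in each of the 14 alternative settings, the omission of any single leaf array included.

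Among falls, EXPA8 (AT2G40610), an expansin that loosens cell walls during growth, went furthest. It read 9.48, 9.82 and 9.71 in mock leaves and 6.75, 4.93 and 7.07 in osmotic leaves. Every osmotic array was more than 2 log2 units below every mock array, with a difference of -3.42 ± 0.35 (10.7-fold lower, adjusted p = 3.6e-06). BZIP61 (AT3G58120), a transcription factor of the basic leucine zipper family, read 7.14, 7.53 and 7.33 and fell to 4.06, 4.15 and 5.77. That fall was -2.67 ± 0.37, and osmotic replicate 3 held the highest of its 3 values. DRT100 (AT3G12610), a leucine-rich repeat protein first described for tolerance of DNA damage, went from 9.51, 9.33 and 9.53 to 7.80, 6.22 and 7.23 (-2.37 ± 0.29, adjusted p = 2.4e-05).

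The other 9 of the 12 largest falls were loci given by identifier only. AT1G29660 fell from 11.21, 11.12 and 11.34 to 9.04, 7.47 and 8.45, and AT2G10940 from 11.51, 11.76 and 11.42 to 9.45, 8.16 and 9.20. The differences were -2.90 ± 0.35 and -2.63 ± 0.22. AT5G44020 fell by 2.83 ± 0.24 and AT1G06830 fell by 2.65 ± 0.38. AT1G22690 fell by 2.54 ± 0.22 and AT2G44240 fell by 2.50 ± 0.33. AT5G48490 fell by 2.24 ± 0.38, with osmotic replicate 3 at 9.18 nearest to the lowest mock value of 9.70. AT1G76240 fell by 2.19 ± 0.21, and AT1G79770 fell by 2.18 ± 0.14 with the smallest SE of the 12, from a mean of 6.80 ± 0.19 to 4.62 ± 0.07 (SD, n = 3). Each of these falls kept its call in all 14 settings.

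The osmotic arrays were not equally far from mock. Of the 248 genes that rose at least 2-fold without overlap and above the median level, osmotic replicate 2 was the highest array in 128, replicate 3 in 105 and replicate 1 in 15. Of the 163 such falls, replicate 2 was the lowest in 115, replicate 3 in 39 and replicate 1 in 9. These counts describe genes chosen by the same contrast.

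**Figure D2:**
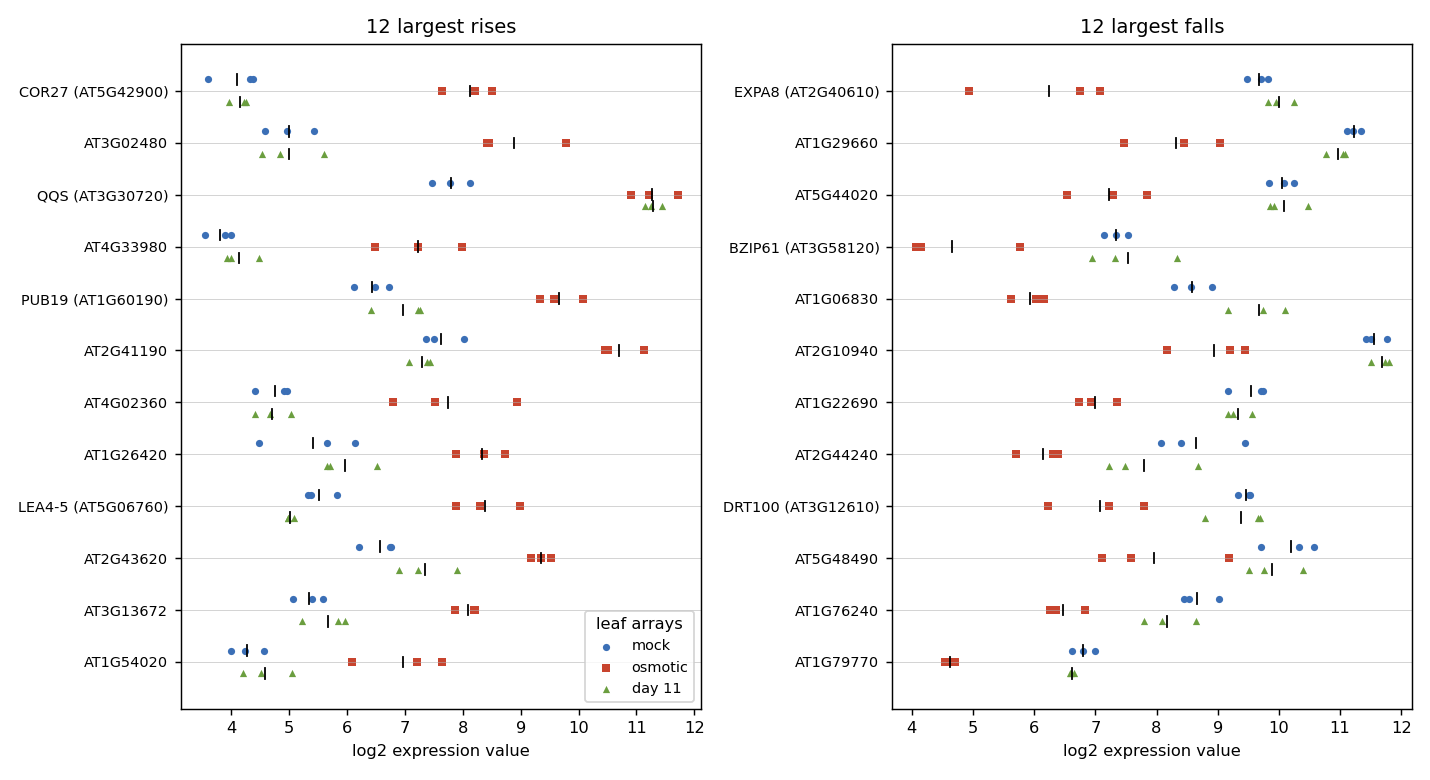
Log2 expression values of the 12 largest rises (left) and the 12 largest falls (right), with 3 mock (circles), 3 osmotic (squares) and 3 day 11 (triangles) leaf arrays each and a bar at each group mean. The ranking took only genes whose osmotic and mock arrays did not overlap. QQS alone among the rises has its day 11 mean at the osmotic level.

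Of 27 genes listed for dehydration-protective proteins, 7 were measured, in a list chosen with earlier results of these data known. These proteins are mostly hydrophilic and are known to accumulate in drying seeds and in stressed leaves, where they shield membranes and enzymes. All 7 measured members of the list rose, with a median of 2.06 and no overlap of arrays, where 7.55% of all 13356 genes rose and 10.9% fell. All 7 were still called when any single leaf array was left out. AT3G02480, the member with the largest change, went from 5.42, 4.59 and 4.96 to 8.43, 9.79 and 8.45 (3.90 ± 0.39, adjusted p = 2.6e-06). LEA4-5 (AT5G06760), of group 4 of the late embryogenesis abundant proteins, went from 5.82, 5.33 and 5.37 to 8.30, 8.99 and 7.87. For this gene the rise was 7.36-fold, whereas the dehydrin LTI30 (AT3G50970) started higher, at 8.59, 8.92 and 8.50, and reached 10.84, 11.05 and 11.02 (2.30 ± 0.24). The aldehyde dehydrogenase ALDH7B4 (AT1G54100), which detoxifies aldehydes formed under stress, rose by 2.06 ± 0.17.

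The other members were abundant already in mock leaves. COR15A (AT2G42540), a chloroplast protein that protects membranes on freezing, read 10.24, 11.32 and 10.34 and then 12.63, 12.53 and 12.92 (2.06 ± 0.23). Its homologue COR15B (AT2G42530) rose by 1.40 ± 0.21, from 10.50, 11.32 and 10.87 to 12.39, 11.75 and 12.74. Mock replicate 2 was the highest mock array for both, and the groups still did not overlap. The acidic dehydrin COR47 (AT1G20440) rose by 1.33 ± 0.13, to 12.28, 11.96 and 12.32.

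**Figure D3:**
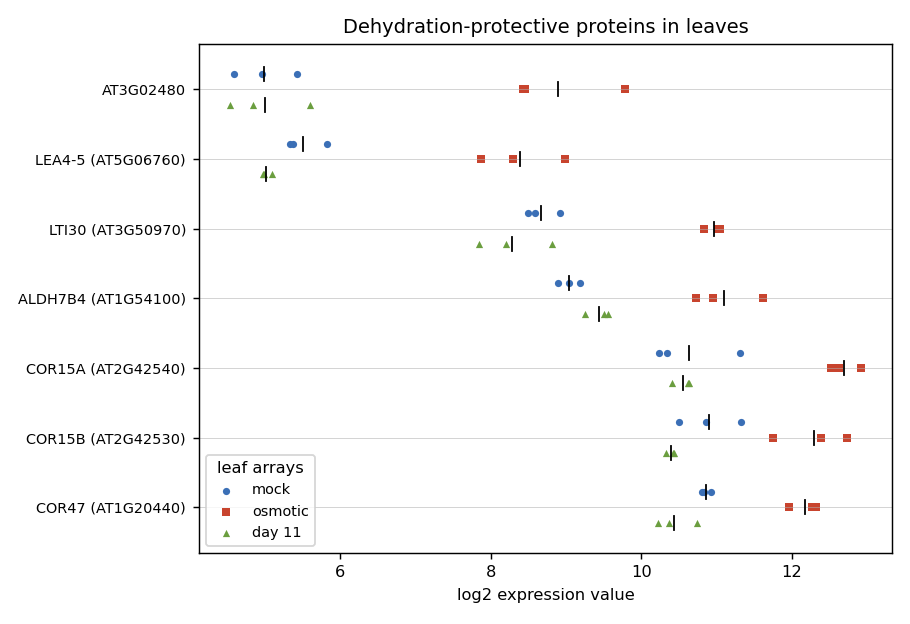
Log2 expression values of the 7 measured dehydration-protective genes in leaves, with 3 mock (circles), 3 osmotic (squares) and 3 day 11 (triangles) arrays each and a bar at each group mean. In every gene the osmotic arrays lie above all mock arrays.

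Single genes known from ABA and drought responses also rose. XERICO (AT2G04240), a RING-type protein whose overexpression raises ABA content, read 8.71, 8.40 and 8.35 in mock and 9.46, 9.36 and 9.42 in osmotic leaves. Its rise of 0.92 ± 0.14 was modest but tight across arrays. The following were chosen after their values were seen. UGT71B6 (AT3G21780), a glucosyltransferase that conjugates ABA, rose by 0.98 ± 0.22. The drought-induced genes DI21 (AT4G15910) and RD2 (AT2G21620) rose by 1.00 ± 0.18 and 0.74 ± 0.13, and SIS (AT5G02020), a serine-rich protein of salt tolerance, by 1.45 ± 0.26. WSD1 (AT5G37300), a wax ester synthase of the cuticle, rose by 1.35 ± 0.21 from a mean below the lower quartile. HIS1-3 (AT2G18050), a drought-inducible linker histone, stood 1.64 ± 0.48 higher (adjusted p = 0.02), a call that was lost without mock replicate 1, mock replicate 3 or osmotic replicate 3.

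Transcription factors were counted by family, beside 7.55% of all genes that rose and 10.9% that fell. Of 7 bHLH factors 1 fell and none rose (1 without osmotic replicate 1 or 2), and 3 GRAS factors, at -0.36 to 0.32, were not called. Of 7 WRKY factors, a family of defence and senescence regulators, 2 rose and none fell. WRKY53 (AT4G23810), which promotes leaf senescence, read 8.89, 8.18 and 8.76 in mock and 9.91, 11.01 and 10.60 in osmotic leaves (1.90 ± 0.27, adjusted p = 7.8e-05). WRKY6 (AT1G62300), a factor of senescence and of phosphate supply, rose by 1.44 ± 0.22, and the other 5 lay between -0.15 and 0.17. Of 22 bZIP factors, 3 rose and 2 fell, or 1 and 2 without mock replicate 2 and 5 and 2 with each array centred on its median. BZIP34 (AT2G42380), the closest relative of BZIP61, fell by 1.38 ± 0.22 to a mean below the lower quartile. BZIP60 (AT1G42990) and BZIP28 (AT3G10800), the membrane-bound factors of the unfolded protein response, rose by 0.81 ± 0.14 and 0.47 ± 0.12, the second only while mock replicate 2 was included. STZ (AT1G27730), a zinc finger repressor of abiotic stress responses, rose by 1.12 ± 0.19.

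Clock and daily-rhythm genes were measured by 5 of 35 listed members. Of these 3 rose and 1 fell, where 7.55% of all genes rose and 10.9% fell. Besides COR27 and AT4G33980, GI (AT1G22770), the evening gene GIGANTEA, rose by 0.58 ± 0.14. It read 8.57, 8.78 and 8.61 in mock and 9.65, 8.98 and 9.06 in osmotic leaves, so that osmotic replicate 1 was the highest. The rise was 0.37 without that replicate, and the call was lost when only the 6 arrays compared were fitted. AT1G69570 stood 0.61 ± 0.18 lower (adjusted p = 0.024), and this call was lost without mock replicate 1 or 3 or osmotic replicate 1 or 2. A difference in collection hour between mock and osmotic plants was not tested.

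Genes of protein turnover were measured through several lists. Autophagy, the delivery of cell contents to the vacuole for breakdown, had 9 of 12 measured genes rising and none falling, with a median of 0.49 and rises of 0.37 to 0.95. The list held 24 genes, and over all genes 7.55% rose and 10.9% fell. ATG8H (AT3G06420), a ubiquitin-like protein that coats the autophagosome membrane, read 7.10, 6.87 and 6.83 in mock and 7.30, 8.29 and 8.04 in osmotic leaves (0.95 ± 0.21). ATG8D (AT2G05630) rose by 0.79 ± 0.14 and APG8A (AT4G21980) by 0.64 ± 0.15, and ATG8E (AT2G45170) stood at 0.53 ± 0.26 with overlapping arrays (adjusted p = 0.16). The count of rising autophagy genes was 4 without mock replicate 2 and 5 without osmotic replicate 2, and 3 when only the 6 arrays compared were fitted.

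Of 9 U-box ubiquitin ligases, 3 rose and none fell, where 7.55% of all genes rose and 10.9% fell. Among genes with a symbol the shares were 11.2% and 13.5%. After PUB19 came PUB24 (AT3G11840), a ligase of pathogen responses, at 1.18 ± 0.27, with values of 7.31, 6.61 and 6.95 in mock and 7.49, 8.69 and 8.24 in osmotic leaves. PUB43 (AT1G76390) rose by 0.66 ± 0.17, not called without mock replicate 2 or osmotic replicate 2, and PUB23 (AT2G35930) stood at 0.82 ± 0.30 with overlap (adjusted p = 0.066). Vacuolar sorting genes named VPS counted 3 rises and 1 fall among 10, and the fall was lost without mock replicate 2 or 3 or osmotic replicate 2 or 3. The VPS and SCPL groupings were formed after the values were seen. VPS20.1 (AT5G63880) of the endosomal sorting complex rose by 0.61 ± 0.12. SCPL49 (AT3G10410), a serine carboxypeptidase-like protein, went from 9.11, 9.18 and 9.18 to 10.30, 9.96 and 10.36 (1.05 ± 0.11), while 3 of the 29 members of its family fell, a share near the 10.9% over all genes, or 5 without osmotic replicate 1. In the breakdown of branched-chain amino acids 3 of 6 measured genes, of 12 listed, rose, and 1 rose without mock replicate 1 or without osmotic replicate 3. IVD (AT3G45300), an isovaleryl-CoA dehydrogenase of mitochondria, rose by 0.75 ± 0.19.

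Sugar transporters moved in both directions. Of 19 measured members, of 32 listed, 3 rose and 6 fell, with a median of 0.07, where 7.55% of all genes rose and 10.9% fell. SWEET4 (AT3G28007), a sugar carrier of the plasma membrane, read 6.51, 6.61 and 6.49 in mock and 8.60, 9.08 and 8.68 in osmotic leaves (2.26 ± 0.17, adjusted p = 1.4e-07). SWEET2 (AT3G14770), a carrier of the vacuole membrane, went the other way, from 7.51, 7.73 and 7.40 to 5.60, 5.43 and 5.35 (-2.08 ± 0.18, adjusted p = 5.4e-07). SAG29 (AT5G13170), also known as SWEET15 and induced in senescing leaves, rose by 1.78 ± 0.33, with osmotic values of 7.73, 8.16 and 6.35. The falling members were 2 without mock replicate 2 and 3 without mock replicate 3 or without osmotic replicate 2. In carbon metabolism, genes chosen after their values were seen moved as follows: ATSPS4F (AT4G10120), a sucrose-phosphate synthase, fell by 1.20 ± 0.28, and PDC2 (AT5G54960), a pyruvate decarboxylase of fermentation, rose by 1.20 ± 0.24.

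Genes that act on the cell wall moved in both directions. Among 15 measured expansins, of 25 listed, 2 rose and 4 fell, with a median of -0.20, where 7.55% of all genes rose and 10.9% fell. EXPA16 (AT3G55500), an expansin like EXPA8, moved opposite to it, from 6.82, 6.79 and 6.13 in mock to 8.09, 9.11 and 8.79 in osmotic leaves (2.09 ± 0.23). EXPB1 (AT2G20750), a beta-expansin, fell by 1.44 ± 0.32, with osmotic replicate 2 lowest at 4.88. The falling expansins were 2 without mock replicate 2 or 3 or without osmotic replicate 2 or 3, and 2 also with each array centred on its median. The rising ones were 1 without mock replicate 2.

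Xyloglucan endotransglucosylases cut and rejoin wall xyloglucan. Of 9 measured members, of 24 listed, 3 fell and none rose, where 10.9% of all genes fell and 7.55% rose. XTH16 (AT3G23730) fell by 1.06 ± 0.24, from 7.53, 7.96 and 8.25 to 6.81, 6.98 and 6.77, and the other 2 calls were lost without mock replicate 2 or 3 or osmotic replicate 2. CSLA03 (AT1G23480), a glucomannan synthase of the cellulose synthase superfamily, went from 6.71, 7.19 and 7.53 to 5.14, 5.30 and 5.60 (-1.80 ± 0.24). CSLA01 (AT4G16590) of the same branch rose by 0.94 ± 0.22, or by 0.59 without osmotic replicate 3, and was not called when only the 6 arrays compared were fitted. TBL45 (AT2G30010), of a family that acetylates wall polysaccharides, fell by 1.80 ± 0.22. In that family, grouped after the values were seen, 1 of 22 rose and 4 fell. The family's falls were 1 without mock replicate 3 or osmotic replicate 2 and with array centring, and 2 without mock replicate 2 or osmotic replicate 1; its rise was lost without mock replicate 2 or 3 or osmotic replicate 2 or 3. Chosen after their values were seen, SKU5 (AT4G12420), a wall-associated protein of directional growth, fell by 1.12 ± 0.15, and THE1 (AT5G54380), a receptor kinase that senses wall damage, fell by 1.18 ± 0.28.

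Of the cytoskeleton, tubulins and proteins that bind microtubules were measured, beside 7.55% of all genes that rose and 10.9% that fell. Among genes with a symbol the shares were 11.2% and 13.5%. TUB1 (AT1G75780), a beta-tubulin, read 6.90, 6.91 and 6.83 in mock and 6.03, 5.33 and 5.40 in osmotic leaves (-1.29 ± 0.31). Of 9 tubulins 2 fell and none rose, at a median of -0.44, with 4 falls without osmotic replicate 1 and 1 without mock replicate 1 or 3 or osmotic replicate 2. Array centring left 1 fall and gave 1 rise. ACT11 (AT3G12110), an actin, chosen after its value was seen, fell from 6.46, 6.94 and 6.99 to 5.31, 4.47 and 4.53 (-2.03 ± 0.22). Of 15 IQ-domain proteins, which bind calmodulin and microtubules, 6 fell and none rose. IQD19 (AT4G14750) fell by 1.29 ± 0.21 and iqd21 (AT3G49260) by 1.07 ± 0.14, and 3 members fell without osmotic replicate 2. TRM24 (AT5G51850), of a family that includes microtubule-associated proteins, fell by 1.84 ± 0.18 to a mean below the lower quartile. The IQ-domain, TBL, VPS, SCPL, RALF-like, jacalin lectin, plastid assembly and plastid-encoded groupings were formed after the values were seen.

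Small secreted RALF-like peptides, known to signal through receptor kinases of the cell surface, moved both ways, with 2 rises and 4 falls among 11. Over all genes, 7.55% rose and 10.9% fell, and over genes with a symbol 11.2% and 13.5%. This grouping was formed after the values were seen. RALFL24 (AT3G23805) read 7.45, 7.34 and 7.57 in mock and 6.45, 5.70 and 5.90 in osmotic leaves (-1.44 ± 0.17). RALFL32 (AT4G14010) rose by 0.92 ± 0.17, from 7.93, 7.99 and 8.08 to 8.83, 9.11 and 8.83. The falling peptides were 1 without mock replicate 3 and 2 without osmotic replicate 2 or 3, and the rising ones 1 without mock replicate 1 or osmotic replicate 3.

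**Figure D4:**
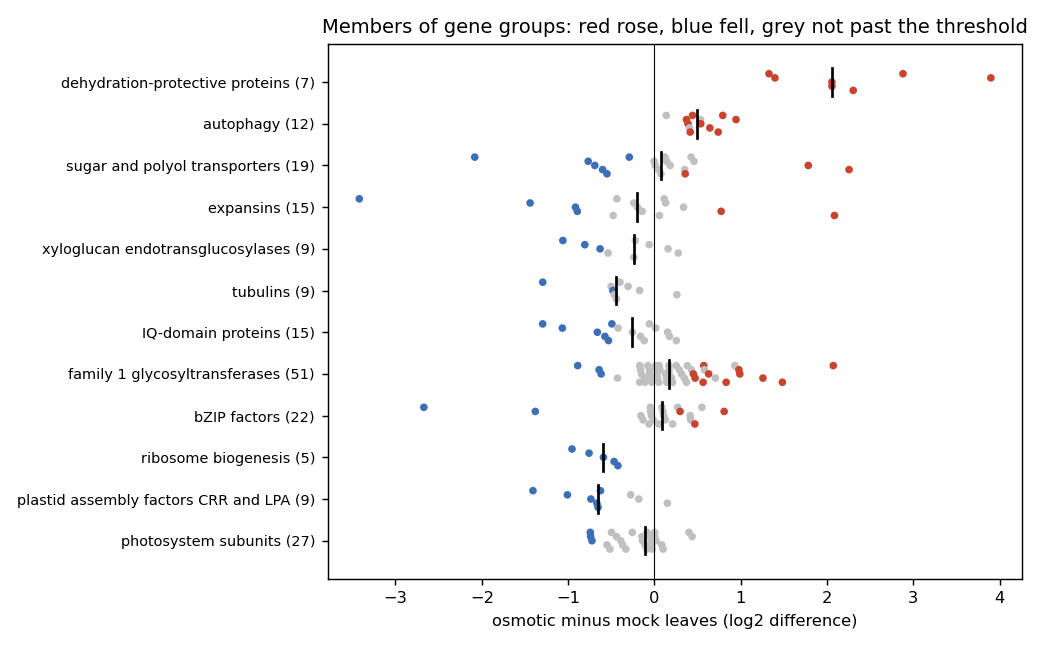
Each point is a gene, placed by its osmotic minus mock log2 difference and coloured red (rose), blue (fell) or grey (not past the threshold), with a black bar at the median and the number of genes after each name. The dehydration-protective genes all lie above 1, the ribosome biogenesis genes all lie below 0, and expansins and sugar transporters spread to both sides.

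Of 69 plastid-encoded genes, a grouping formed after the values were seen, 17 fell and none rose, with a median of -0.26. The shares over all genes were 10.9% falling and 7.55% rising, and over genes with a symbol 13.5% and 11.2%. The falling members were 8 without osmotic replicate 2, 9 without osmotic replicate 1, 10 without mock replicate 1 and 27 without osmotic replicate 3; 2 rose without mock replicate 2 and 3 without osmotic replicate 1. The acetyl-CoA carboxylase subunit accD read 6.43, 6.22 and 6.19 in mock and 5.22, 4.93 and 5.68 in osmotic leaves, without overlap (adjusted p = 0.0041). The NADH dehydrogenase-like subunit ndhK fell by 0.96 ± 0.20. Of 27 photosystem subunits 3 fell and none rose, a share of falls near the 10.9% over all genes. Some of these subunits, psbB and psbN among them, also belong to the plastid-encoded genes, so the counts overlap. Among the falling subunits was psbC, the CP43 antenna of photosystem II, at -0.74 ± 0.17, and 5 fell without osmotic replicate 3. In addition, 1 subunit rose without mock replicate 2 or without osmotic replicate 1.

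Nuclear genes of plastid assembly were counted separately, beside 10.9% of all genes that fell and 7.55% that rose. Among genes with a symbol, 13.5% fell and 11.2% rose. The grouping was formed after the values were seen, so its count only describes the genes chosen. Of 9 factors named CRR and LPA, which edit plastid transcripts or assemble thylakoid complexes, 6 fell and none rose, or 3 without mock replicate 3 or without osmotic replicate 2. CRR21 (AT5G55740), an editing factor for a subunit of the NADH dehydrogenase-like complex, fell from a mean of 7.81 ± 0.17 to 6.40 ± 0.40 (SD, n = 3), a difference of -1.41 ± 0.22. LPA19 (AT1G05385), which acts in photosystem II assembly, fell by 1.01 ± 0.19. Of the leaf markers, SBPASE fell by 0.92 ± 0.15, whereas RCA stood at -0.26 ± 0.18 and PSAE-1 at -0.14 ± 0.25 (adjusted p = 0.37 and 0.76). PRK stood at -0.47 ± 0.16 (adjusted p = 0.044), a call lost without any one of mock replicates 1, 2 and 3 or osmotic replicates 2 and 3.

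The next 3 genes were picked after their values were seen, for their falls. Cpn60beta2 (AT3G13470), a chaperonin subunit, fell by 1.07 ± 0.19, CHLM (AT4G25080), a methyltransferase of chlorophyll synthesis, fell by 0.73 ± 0.15, and NTRC (AT2G41680), a thioredoxin reductase, fell by 0.77 ± 0.13.

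All 5 measured genes of ribosome biogenesis, of 11 listed, fell with a median of -0.59, where 10.9% of all genes fell. NRPA1 (AT3G57660) and NRPA2 (AT1G29940), the largest subunits of RNA polymerase I, which transcribes ribosomal RNA, fell by 0.76 ± 0.15 and 0.59 ± 0.11. AT3G05060 fell by 0.95 ± 0.12, from 9.28, 9.76 and 9.43 to 8.55, 8.67 and 8.40. NRPC1 (AT5G60040) and NRPC2 (AT5G45140) of RNA polymerase III stood at -0.47 ± 0.14 and -0.42 ± 0.13. Those last calls were both lost without mock replicate 2 or osmotic replicate 2 and with each array centred on its median, which left 3 falling members.

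GRX480 (AT1G28480), a glutaredoxin that links salicylic acid and jasmonate signalling, read 7.55, 7.11 and 7.24 in mock and 8.37, 10.03 and 9.65 in osmotic leaves (2.05 ± 0.30, adjusted p = 0.00012). Of the 22 loci listed for jasmonate synthesis and response, none was measured through a probe set of its own. The jasmonate genes given next were chosen after their values were seen, so they do not survey the pathway. JRG21 (AT3G55970), an oxygenase induced by jasmonate, rose by 2.30 ± 0.39. OPCL1 (AT1G20510), a ligase of jasmonate synthesis, rose by 1.00 ± 0.16, JMT (AT1G19640), which methylates jasmonate, by 1.22 ± 0.23, and ORA47 (AT1G74930), an activator of jasmonate synthesis genes, by 1.33 ± 0.25. Osmotic replicate 1 was the lowest osmotic array in JRG21, OPCL1 and JMT, and replicate 2 in ORA47.

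Lectins and sugar-conjugating enzymes also moved. The jacalin-like lectins JAL23 (AT2G39330) and JAL34 (AT3G16460) rose by 1.75 ± 0.28 and 1.58 ± 0.19, 2 of 4 measured in a grouping formed after the values were seen. EULS3 (AT2G39050), a lectin chosen after its value was seen, rose by 1.41 ± 0.20. Of 51 family 1 glycosyltransferases, which attach sugars to hormones and secondary metabolites, 11 rose and 3 fell, with 6 rises without osmotic replicate 2. The shares over all genes were 7.55% rising and 10.9% falling, and over genes with a symbol 11.2% and 13.5%. UGT85A5 (AT1G22370) went from 5.93, 5.89 and 6.24 to 7.44, 7.34 and 7.73 (1.48 ± 0.20). UGT76B1 (AT3G11340), which conjugates salicylic acid, stood 2.07 ± 0.53 higher, but its osmotic values of 8.25, 10.14 and 6.55 overlapped a mock range that reached 6.92. The difference was 1.16 without osmotic replicate 2, and the call was lost when only the leaf arrays were fitted. Of 14 glutathione transferases none passed the limma test at this threshold, with GSTU16 (AT1G59700) at 0.51 ± 0.20 (adjusted p = 0.09).

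Hormone and leaf development genes changed in a few members, where 7.55% of all genes rose and 10.9% fell. Auxin-responsive IAA and GH3 genes were measured by 12 of 34 listed members. GH3.3 (AT2G23170), which conjugates auxin to amino acids, rose by 1.12 ± 0.20, GH3.9 (AT2G47750) fell (adjusted p = 3.2e-05), and 10 were not called. Without osmotic replicate 3 2 genes of this list fell. Of 17 genes listed for cytokinin response and breakdown, 2 were measured. These response regulators, RR16 (AT2G40670) and ARR15 (AT1G74890), both feedback inhibitors, stood at 5.49, 5.36 and 5.97 and at 5.98, 5.25 and 5.64 in osmotic leaves. Neither overlapped its mock arrays, which were at 6.74 or more for RR16 and at 6.36 or more for ARR15. TRY (AT5G53200), an inhibitor of trichome formation, fell by 1.46 ± 0.25, and YAB5 (AT2G26580), of the YABBY factors of leaf polarity, fell by 0.80 ± 0.15; both were chosen after their values were seen. Of 11 genes listed for stomatal function, 3 were measured, all factors of the stomatal lineage. FMA (AT3G24140) and MUTE (AT3G06120) were called lower, at -0.65 ± 0.20 and -0.48 ± 0.16, MUTE to a mean below the lower quartile. Only 1 or neither of these calls remained when any 1 array was left out, and neither without mock replicate 1, mock replicate 3 or osmotic replicate 2. SPCH (AT5G53210) stood at 0.06 ± 0.20.

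Genes that respond to touch were listed as possible markers of handling, and 3 of the 6 listed were measured. All 3 rose, where 7.55% of all genes rose. They were also the only called members among 8 calmodulin-like genes. CML37 (AT5G42380), a calmodulin-like protein, read 6.57, 5.95 and 6.19 in mock and 6.89, 7.53 and 8.02 in osmotic leaves (1.24 ± 0.35). CML38 (AT1G76650) stood 1.02 ± 0.33 and AT1G76640 0.70 ± 0.23 higher. CML38 stood at 0.62 without osmotic replicate 3 and AT1G76640 at 0.39 without osmotic replicate 2. The log2 of the summed level of the 3 genes was 8.12 to 8.40 in mock, 8.96 to 9.98 in osmotic and 9.50 to 10.1 in day 11 leaves, and none was at 0. None of the 3 calls remained without mock replicate 2, and 1 remained without mock replicate 3 or osmotic replicate 2 or 3. In roots the changes were 2.26 ± 0.35 for CML37, 2.46 ± 0.33 for CML38 and 1.74 ± 0.23 for AT1G76640. In neither organ do these genes tell handling from mannitol. The part of handling in the leaf changes was not tested.

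Levels at day 11 were compared with mock for the 24 largest changes. The day 11 mean differed from the mock mean by under 0.25 of the osmotic change for 10 of the 12 largest rises and 10 of the 12 largest falls. QQS was the exception among rises with a day 11 mean of 11.28, beside 7.79 in mock leaves, and AT2G43620 stood 0.77 above mock. Among falls, AT1G06830 stood 1.09 above mock at day 11 and AT2G44240 0.85 below. Comparisons with day 11 share the mock arrays with the comparison of osmotic and mock leaves.

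The response of the 24 genes was set against that of roots, which had been in the mannitol solution itself. The difference between organs was tested as an interaction in the same fit, which called 15.4% of all probe sets. It passed for 19 of the 24 genes. These genes were chosen for their leaf change, which is part of the tested difference, so the count is not comparable with that share and the tests lean toward a larger leaf response. Of 12 rises, 8 also rose in roots, where 10.6% of probe sets rose and 13.7% fell, and 4 did not pass there: AT2G41190, AT2G43620, AT3G13672 and AT1G54020. AT3G13672 stood at -0.01 ± 0.19 in roots against 2.75 ± 0.19 in leaves, a difference of -2.76 ± 0.27 (adjusted p = 2e-06). The rise was larger in roots for QQS, by 1.87 ± 0.40, and for LEA4-5, by 1.63 ± 0.31. For COR27, which also rose in roots, the difference between organs of -0.84 ± 0.35 did not pass (adjusted p = 0.12; adjusted p = 0.041 without osmotic leaf replicate 2).

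Of the 12 falls, 3 also fell in roots, 1 rose and 8 were not called there. AT5G44020 fell by 0.88 ± 0.24 in roots, where its mock mean was 11.34, and the organ difference was 1.95 ± 0.33 (adjusted p = 0.00065). AT1G79770, at 4.19 in mock roots, rose there by 0.43 ± 0.14. DRT100, bright in both organs with a mock root mean of 10.41, stood at -0.36 ± 0.29 in roots, and the organ difference of 2.01 ± 0.42 passed (adjusted p = 0.0028). For 8 of the 12, EXPA8 included, a fall of the leaf size would have taken the mock root mean below the highest lower quartile of the arrays (4.50), so it could not have been seen in full in roots; the organ difference passed for 7 of these 8 and for the 4 others.

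**Figure D5:**
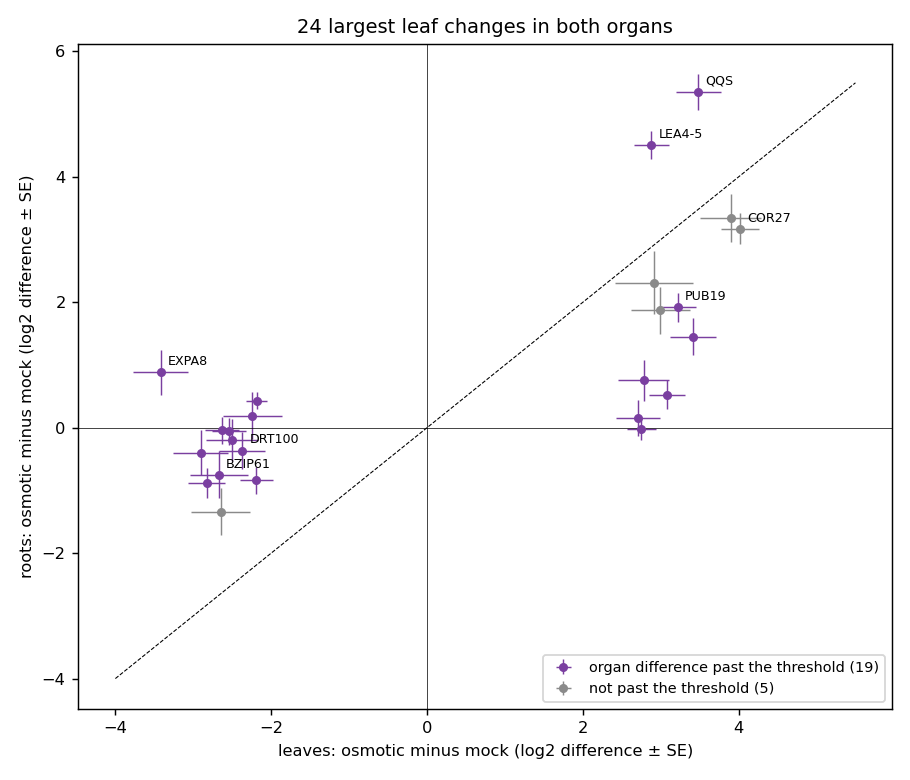
Osmotic minus mock log2 difference ± SE of the 24 genes in leaves (horizontal) and roots (vertical), n = 3 arrays a group, with a dashed line of equal response. The 19 purple genes passed the test of the organ difference; QQS and LEA4-5 lie above the line among the rises, and all falls lie above the line, with root differences between -1.34 and 0.88.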

How the data were processed

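RNA of leaves and roots was hybridised to Affymetrix ATH1 arrays, 3 in each of 6 groups. The authors deposited log2 expression values for 22810 probe sets. How they were summarised and normalised is not given in the sources used here. Their range (2.38 to 13.9) set the log base, and they were used as deposited. All columns of the table were used (0 left out). Without the 64 control probe sets, 22746 were tested. The platform annotation paired 13513 of these with 1 gene, 503 with several and 8730 with none; 13436 of the first kind were matched to the RefSeq gene table, and 13356 genes remained, each through its probe set with the highest mean. Genes given by locus identifier had no symbol in that table.

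limma 3.58.1 in R 4.3.3 estimated 6 group means from the 18 arrays (eBayes with a mean-variance trend, 12 residual degrees of freedom), with Benjamini-Hochberg adjustment over all probe sets and a threshold of 0.05. The fit was also run on simulated data with known changes, which had independent noise and far fewer changes than were called here. Its outcome is not given and is not used as support. With 3 arrays a group, an exact two-sided permutation test could not go below 0.1. Named genes were the 12 largest rises and falls among genes past the threshold, changed at least 2-fold, without overlap of the 6 arrays and with the brighter mean above 6.61, the median of all values. From each list, at most 4 called members and 3 others were named by size of change, and genes outside this rule are marked in the text or belong to the dehydration-protective, cytokinin or ribosome biogenesis lists. The genes and lists were chosen with earlier results of these data known. Of 33 lists of loci, 10 had no measured member and are not analysed here, among them ABA receptors, aquaporins and the jasmonate list. Promoter sequences were not used here, and no genome build is named with the values, so no coordinates are given. Alternatives changed scaling, the filter on dim probe sets, the arrays in the fit, array weights, the variance trend, a replicate block and the omission of each of the 6 leaf arrays.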

Additional observations from a re-analysis of the deposited data

Results flagged for a closer look

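For 19 of the 24 largest leaf changes the response to mannitol differed between the organs, tested as an interaction in the limma fit at an adjusted p under 0.05. The genes were chosen for their leaf change, which enters the difference, so these tests lean toward a larger leaf response and their number is no independent evidence. As root minus leaf response on the log2 scale, the difference was negative for 6 rises: -1.97 for AT4G33980, -1.3 for PUB19, -2.55 for AT2G41190, -2.02 for AT2G43620, -2.76 for AT3G13672 and -2.55 for AT1G54020. It was positive for the rises of QQS (1.87) and LEA4-5 (1.63). Among falls, it was 1.95 for AT5G44020, 1.92 for BZIP61, 2.01 for DRT100 and 1.35 for AT1G76240, all with room to fall in roots. In the remaining 7 falls a change of the leaf size could not have been seen in full in roots: 4.3 for EXPA8, 2.51 for AT1G29660, 2.58 for AT2G10940, 2.48 for AT1G22690, 2.31 for AT2G44240, 2.44 for AT5G48490 and 2.61 for AT1G79770. All 19 were called in each of the 12 alternatives in which the organs could be compared. The highest adjusted p was that of BZIP61, which lay just under the threshold and is 0.05 after rounding.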

How the results depend on the processing

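Over all 14 alternatives no named gene past the threshold changed sign, and 125 of 191 such genes kept their call throughout. For named genes not past the threshold, the sign changed in 22 cases over genes and alternatives. The count of changed probe sets was 3063 and that of falls 1707 when only the 6 arrays compared were fitted, which leaves fewer residual degrees of freedom. Leaving out 1 leaf array gave 3048 to 5248 changed, 1301 to 2268 risen and 1747 to 2980 fallen probe sets, with each lowest count without osmotic leaf replicate 2 and each highest without osmotic leaf replicate 1; the cause was not tested. Probe sets that rose at least 2-fold were 509 to 840 and those that fell 282 to 559, and the organ difference was called for 2655 to 3718. Array centring gave 2514 rises and 2097 falls and moved the median of all probe sets by 0.063. Same-numbered mock and osmotic leaf arrays did not deviate together (correlations of -0.053, -0.289 and 0.119), so the numbers were not taken as pairs; with a replicate block, 4635 probe sets changed, 1962 upwards and 2673 downwards. Precision is limited by 3 arrays a group, and dim probe sets by the background.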
